A study of Mus musculus with 8 samples.

Results

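The Zfp genes of the mouse are zinc finger genes named Zfp and a number, most of them of the C2H2 family. All protein-coding genes on chromosomes 1 to 19 whose symbol is Zfp followed by digits were taken from the mm9 gene annotation (GENCODE vM1), which gave 337 gene records (333 symbols, 4 of them with 2 records) of 21418 protein-coding genes. HTT occupancy at these genes was read from 4 ChIP-seq libraries of mouse cortex made with an antibody against huntingtin (EPR5526), the protein whose glutamine tract is lengthened in Huntington's disease. The design crossed genotype, wild type (Htt+/+) or HttQ111/+ (a knock-in of human HTT exon 1 with an expanded CAG tract into 1 copy of Htt), with treatment, an Htt antisense oligonucleotide (ASO) that lowers both the wild-type and the mutant product, or none. All mice were males aged 4 months. The ASO was given once into 1 cerebral ventricle at 500 µg, and the cortex on the injected side was taken 4 weeks later. Each of the 4 groups held 1 library of pooled cortex, 3 mice per pool by the labels (fewer by the methods, so the pool size is uncertain). No spread between replicates can thus be given, and no p-value across genes was computed. Intervals are 95% intervals for counting error only (Wilson for shares and for ratios of 2 counts, exact Poisson for counts per Mb).

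Each C2H2 finger is a short fold in which a pair of cysteines and a pair of histidines hold a zinc ion, and tandem fingers read DNA or RNA. Many members also carry a KRAB domain, which recruits the corepressor KAP1 (Trim28) and through it SETDB1, the enzyme that places H3K9me3 on retroelements and on some imprinted genes. KRAB zinc finger genes arose largely by tandem duplication and lie in clusters, and their finger arrays are mostly encoded in 1 long coding exon. Here 203 records stood in 51 clusters (neighbouring start sites at most 200 kb apart), of which 27 held 2 records and the largest held 19 genes on chromosome 13. The other 134 records stood alone. Only Zfp genes were chained, so a single gene here may still lie beside zinc finger genes of other names, which was not examined. The clusters of Zfp664 and of Zfp319 each held only 2 records of the same symbol, not neighbouring genes. Chromosome 7 alone held 86 records. Clustered genes had a median of 11 fingers in the longest annotated protein and single genes a median of 7, and 17 members had no C2H2 finger by the search used here, among them Zfp36, an RNA-binding protein of the CCCH type. The shorter records of Zfp664 and Zfp319 were also among the 17, though the other records of these symbols had 9 and 12 fingers.

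The libraries held between 39420 and 46749 peaks on these chromosomes. The number of reads under each summit was recovered from the deposited fold enrichment and p-value, and 79.4% to 87.1% of the peaks of a library rested on only 2 to 4 reads. Background depth was 1.1 to 1.36 ChIP reads per kb of genome against 3.63 in the merged input. The narrowest peaks were 210 to 230 bp wide in 3 libraries and 287 bp in the HttQ111/+ ASO library. That library stood apart at start sites: 4.51% of all protein-coding genes had a start-site peak in it, while the share was 13.5% for wild type untreated, 16.9% for wild type with ASO and 19.2% for HttQ111/+ untreated. The counts and ratios over all Zfp genes are also given without it.

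HTT peaks within 1 kb of the start site were found at 98 Zfp genes in at least 1 library (29.1%, 24.5 to 34.1). Over all protein-coding genes the share was 35.7%, and over the 21081 other protein-coding genes it was 35.8% (35.2 to 36.5), so the share of Zfp genes was 0.811 times that of the others (0.683 to 0.952, with the share of the other genes taken as fixed). Peaks in 2 or more libraries were found at 36 Zfp genes (10.7%, 7.82 to 14.4), beside 13.4% of all protein-coding genes. At 34 of the 36 the peaks of different libraries overlapped (10.1% of Zfp genes, 11.7% of all genes). Without the HttQ111/+ ASO library the counts were 95 and 36, and the ratio of shares in 1 or more libraries was 0.835 (0.701 to 0.985). By library, start-site peaks of untreated mice were found at 42 Zfp genes (12.5%) for wild type and 55 (16.3%) for HttQ111/+, and those of ASO-treated mice at 45 (13.4%) and 8 (2.37%). Each of these shares lay below that of the other genes in the same library (13.6%, 19.3%, 17.0% and 4.54%), but in each of the 4 libraries the interval of the Zfp share held that of the other genes. Of the 42 genes in Htt+/+ untreated, 23 also had a start-site peak in HttQ111/+ untreated (54.8% of the 42 and 41.8% of the 55), and 16 in Htt+/+ ASO (38.1% of the 42 and 35.6% of the 45). Among other genes these shares were 49.0% and 34.5%, and 42.0% and 33.5%, close to those of the Zfp genes.

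**Figure D1:**
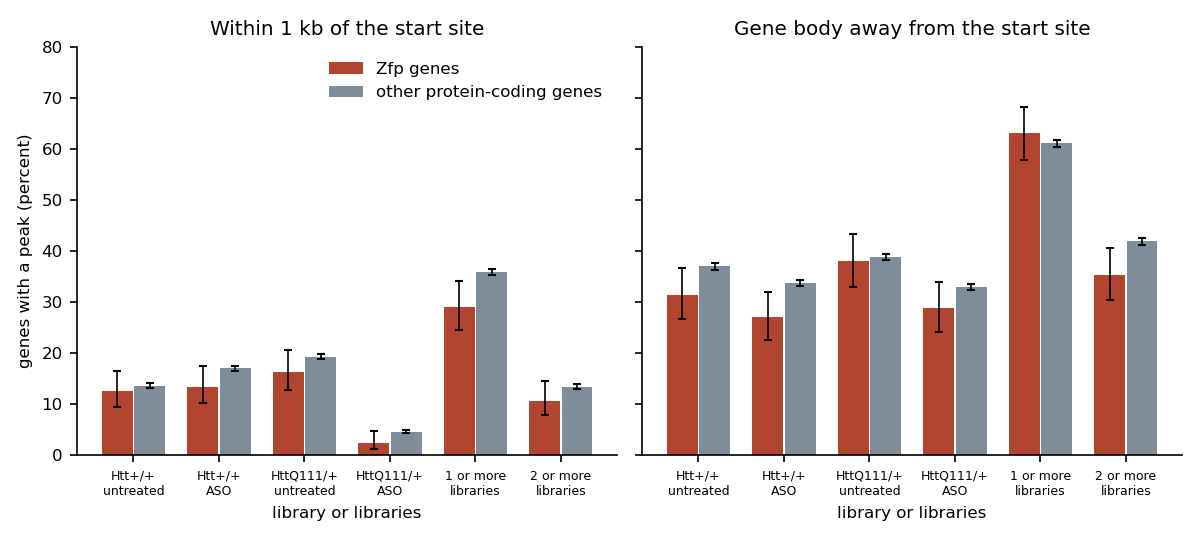
Percent of Zfp genes and of other protein-coding genes with a HTT peak within 1 kb of the start site (left) or elsewhere in the gene (right), in each library and in 1 or more or 2 or more of the 4 libraries. Error bars are 95% Wilson intervals. At start sites 29.1% of Zfp genes had a peak in 1 or more libraries against 35.8% of other genes, while in gene bodies the shares were 63.2% and 61.1%.

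Start-site peaks in all 4 libraries were found at 3 members, Zfp598, Zfp318 and Zfp866 (0.890% of Zfp genes and 0.574% of other genes). Zfp598, a ubiquitin ligase that detects collided ribosomes, had overlapping peaks whose summits lay in an intron, 225 to 302 bp downstream of the start site. Fold enrichment over input at its summit was 4.06 (11 reads) untreated and 5.67 (13 reads) with ASO in wild type, and 4.39 (9 reads) untreated and 3.79 (11 reads) with ASO in HttQ111/+. HttQ111/+ ASO had the lowest fold and Htt+/+ ASO the highest, among peaks chosen for being present in every library. Zfp318, a nuclear protein that acts on RNA processing in B cells, had 4.64 (4 reads), 5.45 (7 reads), 4.58 (4 reads) and 4.77 (5 reads) in the same order of libraries. Its HttQ111/+ untreated summit lay at -132 bp from the start site, apart from the other 3, which lay 465 to 622 bp downstream. Zfp866 had 4.07 (6 reads), 3.77 (6 reads), 5.20 (6 reads) and 4.17 (9 reads). All 4 of its summits lay at -422 to -210 bp, inside the first coding exon of Atp13a1, an ATPase of the endoplasmic reticulum that starts 15 bp away on the other strand, so these peaks cannot be assigned to Zfp866 rather than to Atp13a1.

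The stretch outside annotated exons that the 4 peaks of Zfp598 share is shown with the 200 bases before the start sites of Zfp598 and Zfp318, genes with a start-site peak in every library. No peak reaches the 200 bases before Zfp598, whose peaks lie downstream, and only the HttQ111/+ untreated peak reaches those before Zfp318. Zfp458, which had no peak in any library at its start site or in its body, is shown for contrast (chosen after the values were seen, as the member of the chromosome 13 cluster without peaks nearest the median CpG number of such members). Sequences run 5' to 3' on the strand of the gene in NCBIM37 (mm9), with CpG dinucleotides in capitals.
Zfp598, chr17:24806919-24807082, plus strand, shared by peaks of all 4 libraries: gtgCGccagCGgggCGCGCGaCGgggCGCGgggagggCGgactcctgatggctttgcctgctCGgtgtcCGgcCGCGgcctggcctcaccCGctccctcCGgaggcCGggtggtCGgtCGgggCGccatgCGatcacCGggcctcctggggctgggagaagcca
Zfp598, chr17:24806497-24806696, plus strand: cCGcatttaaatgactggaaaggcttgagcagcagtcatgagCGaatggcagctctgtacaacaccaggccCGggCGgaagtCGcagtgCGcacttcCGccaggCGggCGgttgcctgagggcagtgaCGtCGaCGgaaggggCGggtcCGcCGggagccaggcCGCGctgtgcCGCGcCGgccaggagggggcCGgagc
Zfp318, chr17:46520480-46520679, plus strand: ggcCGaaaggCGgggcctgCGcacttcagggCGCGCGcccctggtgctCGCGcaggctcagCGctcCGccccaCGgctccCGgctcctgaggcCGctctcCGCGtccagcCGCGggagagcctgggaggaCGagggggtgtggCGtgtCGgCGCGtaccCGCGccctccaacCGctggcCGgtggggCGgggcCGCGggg
Zfp458, chr13:67370005-67370204, minus strand: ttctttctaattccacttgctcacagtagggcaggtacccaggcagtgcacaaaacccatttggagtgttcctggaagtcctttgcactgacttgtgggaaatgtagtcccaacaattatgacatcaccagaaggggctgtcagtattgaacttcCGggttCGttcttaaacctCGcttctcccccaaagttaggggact
The shared stretch at Zfp598 held 21 CpG in 164 bases at a GC content of 77.4%. The stretches before the start sites held 21 CpG at Zfp598, 29 at Zfp318 and 3 at Zfp458, with GC contents of 69.0%, 79.5% and 48.0%. These genes were not typical of their sets. In the promoter window described below, Zfp458 held 4 CpG, under the lower quartile (5) of the 239 Zfp genes without a start-site peak. Zfp598 held 38 and Zfp318 held 47, above the upper quartile (28) of the 36 with peaks in 2 or more libraries. The medians of these sets were 11 and 19 CpG, so the printed contrast is wider than that between the sets.

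Peaks in 3 libraries were found at 10 further records. Zfp462, a large regulator of neural development that partners with H3K9 methyltransferases, had fold enrichments of 8.74 (8 reads) in Htt+/+ untreated, 6.25 (6 reads) in Htt+/+ ASO and 6.94 (6 reads) in HttQ111/+ untreated. Zfp365, a DISC1-binding protein of neurons and oligodendrocytes, had 2.98 (8 reads), 4.21 (11 reads) and 4.82 (7 reads) in the same libraries. Zfp644, which works with the G9a and GLP methyltransferases, had 6.66 (10 reads), 4.13 (8 reads) and 2.97 (6 reads). Each of these genes had its summits at nearly the same place in the 3 libraries, 219 to 235 bp downstream of the start site at Zfp462, 103 to 265 bp at Zfp365 and 559 to 679 bp at Zfp644. Zfp69 had 3.83 (8 reads), 6.20 (8 reads) and 8.51 (10 reads). Zfp553 had 4.16 (10 reads), 3.10 (8 reads) and 4.92 (9 reads), and Zfp655 had 3.76 (9 reads), 3.42 (10 reads) and 2.68 (7 reads). In these 6 genes and in Zfp664 the library without a peak was HttQ111/+ ASO. Both records of Zfp664, whose start sites lie 52 bp apart, held the same peaks, of up to 7.89 (10 reads), 2.31 (9 reads) and 3.39 (11 reads), with the strongest summits at -857 to -602 bp from the first of them, on the side of Ccdc92. At 2 genes the missing library was instead Htt+/+ ASO: Zfp276 had 4.47 (8 reads) in Htt+/+ untreated, 5.48 (8 reads) in HttQ111/+ untreated and 4.17 (9 reads) in HttQ111/+ ASO, and Zfp398 had 2.55 (6 reads), 2.60 (6 reads) and 2.76 (11 reads).

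Peaks in exactly 2 libraries were found at 23 genes. Of these, 5 had the highest mean fold enrichment. Zfp105 had 5.90 (7 reads) in Htt+/+ untreated and 12 (10 reads) in Htt+/+ ASO, the latter being the highest fold enrichment at any Zfp start site. The other four had their peaks in the 2 untreated libraries, Htt+/+ first: Zfp820 with 9.34 (5 reads) and 8.06 (4 reads), Zfp871 with 7.87 (7 reads) and 9.21 (6 reads), Zfp384 with 5.37 (8 reads) and 11 (10 reads), and Zfp191 with 6.78 (10 reads) and 7.45 (10 reads). Zfp384 is a nuclear matrix protein that binds promoters of matrix protein genes. The others were Zfp648, Zfp277, Zfp839, Zfp192, Zfp825, Zfp58, Zfp622, Zfp189, Zfp704, Zfp382, Zfp882, Zfp12, Zfp9, Zfp59, Zfp428, Zfp865, Zfp202 and Zfp617. Zfp882 and Zfp617 start 27 bp apart and share their peaks. Peaks of 2 reads were among those of Zfp189, Zfp648, Zfp704, Zfp59, Zfp882 and Zfp617, whereas those of Zfp622, a factor of ribosome assembly, rested on 9 and 13 reads. Of the 36 records, 8 (7 symbols) had another protein-coding start site in the window.

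**Figure D2:**
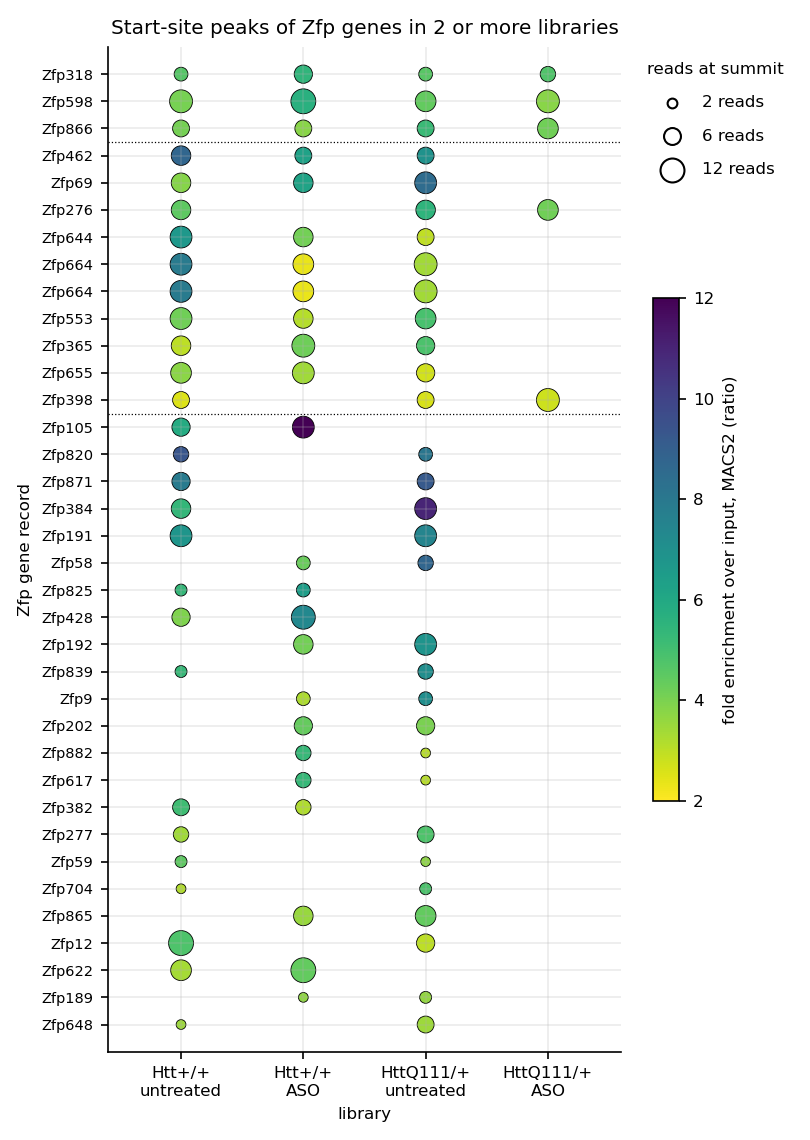
Start-site peaks of the 36 Zfp gene records with a peak in 2 or more libraries. Each point is the strongest peak of a gene in a library, coloured by fold enrichment over input (ratio) and sized by the reads at the summit, and dotted lines part the genes with peaks in 4, 3 and 2 libraries. The HttQ111/+ ASO column holds 5 points, at Zfp318, Zfp598, Zfp866, Zfp276 and Zfp398.

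Start-site peaks of Zfp genes were stronger in reads than their gene-body peaks. The 146 distinct start-site peaks had medians of 6 to 9 reads per library, and 65.1% to 87.5% rested on 5 or more reads, against medians of 3 reads and 16.9% to 28.7% in gene bodies. Median fold enrichments ran the other way, 4.17 to 4.47 at start sites and 4.41 to 5.20 in gene bodies. Other genes had the same orders, so they are not particular to Zfp genes. Their start-site peaks had medians of 5 to 7 reads, with 52.0% to 79.6% on 5 or more, against 3 reads and 15.9% to 20.8% in gene bodies. Their median folds were 3.94 to 4.51 and 4.41 to 5.20. Of the 146 summits, 30 (20.5%) lay before the gene, 45 (30.8%) in a noncoding part of an exon, 16 (11%) in a coding exon and 55 (37.7%) in an intron. The median position was 217 bp downstream of the start site, and 73 lay within 250 bp of it.

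Zfp genes with peaks had start sites richer in CpG. In the 300 bases around the start site (250 before, 50 after) the median was 19 CpG (quartiles 12 and 28) at 60.3% GC for the 36 genes with peaks in 2 or more libraries, 15.5 CpG (8 and 25.5) at 55% for the 62 with a peak in 1 library, and 11 CpG (5 and 18.5) at 52.3% for the 239 without. Other genes had the same order, with 23, 15 and 8 CpG. Sorted by the GC content of the 2 kb window, Zfp and other genes had like shares in the lower bins: under 45% GC, 11.5% of 78 Zfp genes (6.19 to 20.5) and 15% of other genes had a start-site peak; at 50 to 55% GC, 36.8% of 76 and 36.8%. At 60% GC or more the Zfp share was the lower, with 46.7% of 30 genes (30.2 to 63.9) against 65.9% of other genes (63.9 to 67.8). Weighted to the window GC of the Zfp genes, the share of other genes was 33.4%, inside the interval of the Zfp share of 29.1%, and the ratio was 0.870, with an interval that held 1. The weighting was chosen after the data were seen. Without weighting the interval of the ratio also held 1 with a window of 500 bp (0.853), with one of 2 kb (0.89) and with start sites of any protein-coding transcript (0.894). The lower share of Zfp genes thus exceeded counting error with the 1 kb window and the gene's own start site, but not under these settings. Sorted by promoter CpG number, the Zfp share was the lower in every bin, from 15.6% against 21.7% at 0 to 4 CpG to 50% against 58.2% at 30 or more. Its interval lay below the share of other genes only at 10 to 19 CpG (27.0%, 19.6 to 36.0, against 38.1%). Without olfactory, vomeronasal and trace amine receptors among the other genes the ratio was 0.774 (0.652 to 0.909).

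**Figure D3:**
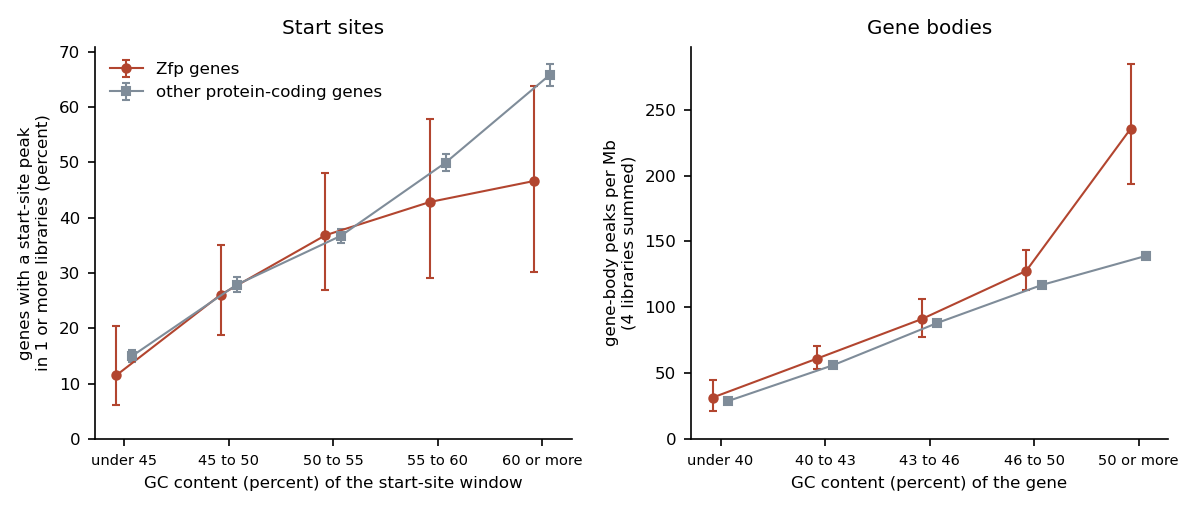
Left, percent of genes with a start-site peak in 1 or more libraries by GC content (percent) of the 2 kb window. Right, gene-body peaks per Mb, summed over the 4 libraries, by GC content (percent) of the gene. Zfp genes are circles and other protein-coding genes squares, with 95% Wilson (left) and exact Poisson (right) intervals. Both measures were higher in bins of higher GC content for both sets, and the sets part in the top bins, at 46.7% and 65.9% on the left and at 236 and 139 peaks per Mb on the right.

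Zfp windows that held another protein-coding start site had peaks more often than those without, though the intervals overlapped. Of 27 such Zfp windows 13 had a start-site peak (48.1%, 30.7 to 66.0), against 85 of the 310 without one (27.4%, 22.8 to 32.6). Among other genes these shares were 39.3% and 35.4%. The 13 Zfp windows are not independent. Both records of Zfp664, Zfp668 with Zfp646, and Zfp882 with Zfp617 lie in each other's window, and the same peaks count for both members of each pair. The letters CCGGAAG, the core of sites of ETS-family activators, were found on either strand in 20.8% of Zfp promoters (300 bases) and 10.9% of all promoters. Among Zfp promoters the share was 27.8% of those with peaks in 2 or more libraries, 29% of those with a peak in 1 library and 17.6% of those without. The box of Sp and Klf factors, searched as CCCGCCC, was found in 41.7%, 24.2% and 25.5% of the same 3 sets, beside 32.1% of all promoters. The NRF1 site, searched by its letters GCGCATG, was matched in 8.33%, 12.9% and 6.28% (4.61% of all promoters), and the YY1 site, searched by its letters GATGGCG, was matched in 8.33%, 8.06% and 3.77% (4.31% of all promoters). The 4 words were searched on both strands and none holds another. A match describes the letters only. Each of the 4 words holds a CpG, and Zfp promoters with peaks held more CpG, so match shares and CpG number were not separated. Among the 36 promoters with peaks in 2 or more libraries the matches were few: 10 for CCGGAAG, 15 for CCCGCCC, 3 for GCGCATG and 3 for GATGGCG. Promoters of other genes were not split by peak, so it was not tested whether these orders are particular to Zfp genes.

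Other zinc finger families had shares at or above that of the Zfp genes. A start-site peak in 1 or more libraries was found at 13 of 36 Zbtb genes (36.1%, 22.5 to 52.4), at 8 of 24 Zkscan and Zscan genes (33.3%, 18.0 to 53.3) and at 18 of 28 Klf and Sp genes (64.3%, 45.8 to 79.3), whose interval lay wholly above that of the Zfp genes (29.1%, 24.5 to 34.1). Olfactory receptor genes, a clustered family with CpG-poor start sites, had 149 of 1081 (13.8%, 11.9 to 16). Without olfactory, vomeronasal and trace amine receptors, the share of other genes was 37.6%.

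Away from the start site, HTT peaks were found in the bodies of 213 Zfp genes in at least 1 library (63.2%, 57.9 to 68.2), beside 61.2% of all protein-coding genes. In 2 or more libraries the count was 119 (35.3%, 30.4 to 40.6), beside 41.8% of all genes, and in all 4 libraries 28 (8.31%, 5.81 to 11.7), beside 13.1% of other genes. A peak at the start site or in the body was found at 243 members (72.1%), beside 72.8% of other genes, and none at the remaining 94. The shares in 2 or more and in all 4 libraries were thus the lower in Zfp genes, while per base over all gene bodies Zfp genes stood above other genes. Their 781 peaks in 8.64 Mb gave 90.3 peaks per Mb over the 4 libraries (84.1 to 96.9). Other genes had 72.6 (72.1 to 73.2), a ratio of 1.24 (1.16 to 1.33). These intervals take peaks as independent, but a stretch can count once in each library. Of the 781 peaks, 320 lay in the 20 Zfp genes of 80 kb or more. Without HttQ111/+ ASO the counts in 1 or more and 2 or more libraries were 192 and 94 and the ratio was 1.29 (1.19 to 1.4). The order depended on gene length: in the 20 Zfp genes of 80 kb or more the density was 87.8 (78.4 to 98.0) against 61.7 in other genes, while in the 122 of 10 to 20 kb it was 86.7 (73.1 to 102) against 110. In the other 4 length bins the Zfp interval held the density of other genes. In untreated mice the Zfp density was 23.5 peaks per Mb for wild type and 28.6 for HttQ111/+, against 19 and 21.0 in other genes, and with ASO it was 20.6 and 17.7, against 16.2 and 16.5. The interval of the Zfp density lay above the density of other genes in 3 libraries and held it in HttQ111/+ ASO (15 to 20.7). Weighted to the GC content of the Zfp genes, other genes had 81.3 peaks per Mb and the ratio was 1.11 (1.04 to 1.19). Density was higher in each higher bin of gene GC content, from 31.5 peaks per Mb in Zfp genes under 40% GC (21.4 to 44.8) to 236 at 50% or more (193 to 284), and in other genes from 29 to 139 (137 to 142). With peaks of 5 or more reads, 90 Zfp genes had a gene-body peak and the ratio of densities was 1.63.

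By part of the gene, the densest HTT peaks of Zfp genes were in coding sequence. The longest coding exon of each member, in most of these genes the exon that encodes the finger array, made up 5.46% of Zfp gene-body bases and held 135 of the 781 summits (17.3%), or 286 per Mb (240 to 338), against 75.3 per Mb in introns (69.2 to 81.8). In other genes the longest coding exon was also dense, at 352 per Mb (339 to 364), but made up 0.917% of bases and held 4.45% of summits. Other coding exons had 284 per Mb in Zfp genes (206 to 381) and 239 in other genes (233 to 246). The density in long coding exons was thus not higher in Zfp genes than in other genes.

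**Figure D4:**
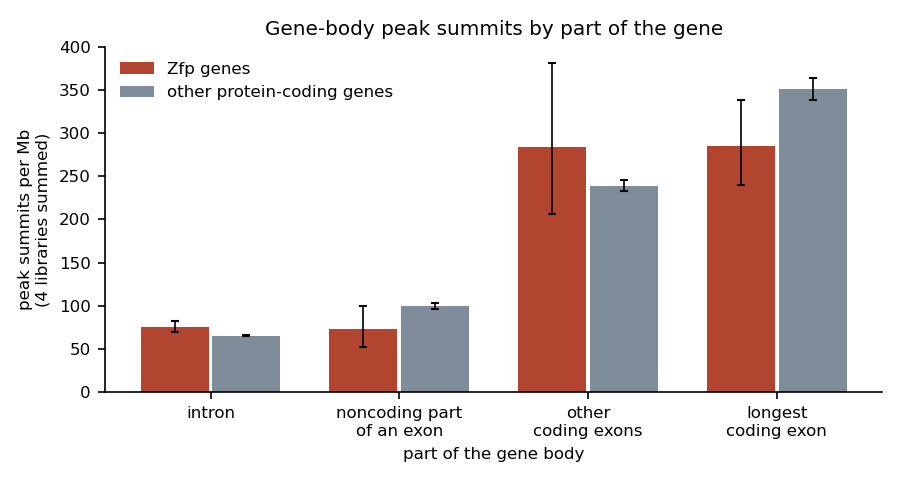
Peak summits per Mb in 4 parts of the gene body, summed over the 4 libraries, for Zfp genes and other protein-coding genes, with exact 95% Poisson intervals. Coding exons held 239 to 352 summits per Mb in both sets, against 65.0 to 99.3 in introns and noncoding parts of exons.

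Gene-body peaks of 2 or more libraries overlapped each other at 75 stretches in 51 Zfp genes (15.1% of members, beside 17.3% of all genes). All summits lay in coding exons at 24 of the stretches and outside coding exons at 49. Peaks of all 4 libraries met at 3 genes, Zfp316, Zfp580 and Zfp771, each time in the exon of the fingers. At Zfp316 on chromosome 5 the strongest of the 9 peaks of the stretch had fold enrichments of 7.06 (15 reads) untreated and 5.07 (15 reads) with ASO in wild type, and 6.97 (12 reads) untreated and 4.32 (11 reads) with ASO in HttQ111/+. Zfp580 on chromosome 7 had fold enrichments of 5.37 (8 reads), 7.10 (9 reads), 7.47 (11 reads) and 5.54 (10 reads) in this order. Zfp771, also on chromosome 7, had 4.81 (7 reads), 5.55 (9 reads), 8.89 (12 reads) and 4.0 (8 reads). The highest fold was in HttQ111/+ untreated at Zfp580 and Zfp771 and in Htt+/+ untreated at Zfp316, among peaks chosen for being present in every library. These stretches are shown because they are the only coding stretches of Zfp gene bodies under overlapping peaks of every library. Capitals mark the codons of the zinc-binding cysteines and histidines of each finger that a search of the translated exon found (a pair of cysteines 2 residues apart, 12 residues, and a pair of histidines 3 to 5 residues apart).
Zfp316, chr5:144015652-144015932, minus strand: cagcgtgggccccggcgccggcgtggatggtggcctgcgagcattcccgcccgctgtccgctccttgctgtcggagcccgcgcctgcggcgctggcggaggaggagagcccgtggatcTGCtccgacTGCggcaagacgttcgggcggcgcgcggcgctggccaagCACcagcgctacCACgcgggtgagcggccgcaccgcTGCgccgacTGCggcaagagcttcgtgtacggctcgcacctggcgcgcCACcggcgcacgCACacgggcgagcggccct
Zfp580, chr7:5004704-5004934, plus strand: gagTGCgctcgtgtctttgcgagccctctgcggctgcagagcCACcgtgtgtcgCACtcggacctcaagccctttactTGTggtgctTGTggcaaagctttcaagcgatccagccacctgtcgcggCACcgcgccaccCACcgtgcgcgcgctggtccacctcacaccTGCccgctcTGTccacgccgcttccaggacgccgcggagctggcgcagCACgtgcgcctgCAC
Zfp771, chr7:134397729-134397860, plus strand: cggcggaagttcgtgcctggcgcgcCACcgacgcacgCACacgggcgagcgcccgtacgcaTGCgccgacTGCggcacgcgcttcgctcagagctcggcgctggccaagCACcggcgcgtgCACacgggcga
The stretch of Zfp316 held 2 whole fingers of the 14 in its exon and 45 CpG in 281 bases (75.8% GC), that of Zfp580 held 2 of 3 and 25 CpG in 231 bases (67.5% GC), and that of Zfp771 held 1 of 8 and 26 CpG in 132 bases (75% GC). Per base, the stretches of Zfp316 and Zfp771 held more CpG than any printed stretch of Zfp598 or Zfp318, and that of Zfp580 fewer than the shared stretch of Zfp598.

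Overlapping peaks of 3 libraries lay in the bodies of Zfp652, Zfp386, Zfp395, Zfp438, Zfp663 and Zfp64, and at a further place in Zfp771. The highest of these was at Zfp386, with 13.7 (8 reads) in HttQ111/+ untreated, 5.71 (5 reads) in Htt+/+ untreated and 7.02 (5 reads) in HttQ111/+ ASO, in an intron. At Zfp652 and Zfp663 the summits lay in coding exons, with 3 to 5 reads each. By number of peaks the long genes led. Zfp536, a repressor of neuronal differentiation, held 57 over 451079 bases (15 and 13 in wild type without and with ASO, 22 and 7 in HttQ111/+), Zfp407 held 35 (12, 10, 9 and 4) and Zfp423, a regulator of neural and fat cell development, held 30 (8, 4, 14 and 4). In these 3 genes HttQ111/+ ASO had the lowest count or shared it. Zfp618 held 26 peaks, Zfp652 20 and Zfp827, which brings the NuRD complex to telomeres, 19 (3, 4, 6 and 6). Per Mb they were far below the short Zfp580 (3361 peaks per Mb), Zfp771 (755) and Zfp316 (673), with 127 at Zfp536 and 76.0 at Zfp407.

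Single and clustered Zfp genes had like shares of start-site peaks, 39 of 134 (29.1%, 22.1 to 37.3) and 59 of 203 (29.1%, 23.3 to 35.7), a difference of 0.0404 percentage points (-9.59 to 10.1). In gene bodies the sets parted. Peaks in 2 or more libraries were found in 47.0% of single genes (38.8 to 55.4) and 27.6% of clustered genes (21.9 to 34.1), and overlapping peaks in 23.1% (16.8 to 31.0) and 9.85% (6.47 to 14.7). Single genes were longer, with a median of 17660.5 gene-body bases against 12625 and 5.65 Mb in all against 2.99 Mb, and per Mb the intervals of both sets overlapped, 89.4 (81.7 to 97.5) and 92.2 (81.6 to 104).

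Clusters differed widely from each other. Among the 14 clusters of 5 or more genes, the 6 genes from Zfp628 to Zfp580 (start sites from chr7:4866819 to chr7:5003134) had 16 gene-body peaks in 0.0354 Mb, or 452 per Mb (258 to 734), and a start-site peak at 4 genes. The 8 genes from Zfp553 to Zfp629 (chr7:134376575 to chr7:134759311) had 354 per Mb (183 to 618), and the 12 from Zfp180 to Zfp575 (chr7:24866943 to chr7:25372660) had 196 (125 to 291). The largest cluster, 19 genes from Zfp712 to Zfp273 (chr13:67162106 to chr13:67914753), had 10 peaks in 0.315 Mb, or 31.7 per Mb (15.2 to 58.4), with a start-site peak at 4 genes. The intervals of the first 3 clusters thus lay above the density of other genes of all lengths (72.6) and that of the chromosome 13 cluster below it. This comparison was not matched for gene length. Other genes had 156 peaks per Mb when under 5 kb, 126 at 5 to 10 kb and 110 at 10 to 20 kb. Their median gene GC contents were 53.0%, 52.8% and 48.0%, against 40.4% on chromosome 13, and GC content and HTT density were not separated within clusters. By number of fingers, the share with a start-site peak was 29.4% of 17 members with none found, 30.2% of 63 with 1 to 5, 33.0% of 103 with 6 to 10, 27.5% of 102 with 11 to 15 and 23.1% of 52 with 16 or more, with intervals that all overlap.

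**Figure D5:**
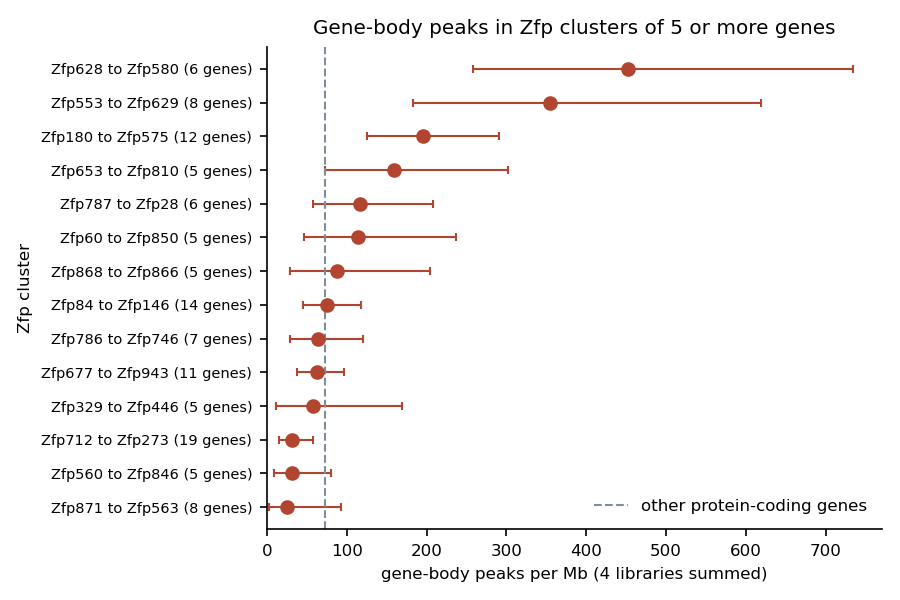
Gene-body peaks per Mb, summed over the 4 libraries, in the 14 Zfp clusters of 5 or more genes, named by the first and last gene, with exact 95% Poisson intervals. The dashed line is the density of other protein-coding genes of all lengths (72.6 per Mb) and is not matched to the gene lengths of the clusters. The intervals of the 4 highest clusters lie above the line, that of the fourth (72.7 to 302) narrowly, and that of the 19-gene cluster from Zfp712 to Zfp273 lies below it.

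By role (lists set from background knowledge), start-site peaks were fewest among members that silence imprinted genes or retroelements with KAP1, within wide intervals. Of 9 such records (Zfp57, Zfp568, Zfp809, Zfp445, Zfp932, Zfp708, Zfp961 and Zfp707) 1 had a start-site peak, Zfp568 in Htt+/+ untreated (11.1%, 1.99 to 43.5), and the list held 10 gene-body peaks (55.6 per Mb, 26.7 to 102). The master imprinting regulator Zfp57 had 2 gene-body peaks, both in Htt+/+ ASO. Among 13 neural and developmental regulators 6 had a start-site peak (46.2%, 23.2 to 70.9), 2 of them in 2 or more libraries (Zfp365 and Zfp462), and all 13 had a gene-body peak, 5 of them in all 4 libraries (Zfp521, Zfp407, Zfp462, Zfp536 and Zfp423), beside 61.2% of all genes with a gene-body peak in 1 or more libraries and 13.1% of other genes with one in all 4. Several of these are very long, and per Mb the list held 90.3 peaks (77.0 to 105), as all Zfp genes did. Of 7 members that bind or process RNA 4 had a start-site peak (57.1%, 25 to 84.2), 3 in 2 or more libraries (Zfp622, Zfp598 and Zfp318). Of 12 promoter-binding or widely expressed regulators 4 had one (33.3%, 13.8 to 60.9), of them Zfp384 in 2 libraries, and so had 3 of 6 partners of chromatin complexes (18.8 to 81.2%). All these intervals hold the share of all genes (35.7%). Outside the family, 12 of 24 records of KAP1 and H3K9 silencing partners had a start-site peak (31.4 to 68.6%), an interval that also held 35.7%. Trim28, which encodes KAP1, was the only 1 of the 24 with 2 libraries, Htt+/+ ASO and HttQ111/+ untreated, and Setdb1 had a peak in HttQ111/+ untreated. Over all genes 13.4% had a start-site peak in 2 or more libraries.

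The design asks whether HTT occupancy depends on genotype and on HTT lowering. ASO to untreated, the number of Zfp genes with a start-site peak stood at 45 to 42 in Htt+/+ (ratio 1.07, 0.706 to 1.63) and at 8 to 55 in HttQ111/+ (0.145, 0.0704 to 0.301). The other genes gave 1.25 and 0.235. HttQ111/+ to Htt+/+, the ratio was 1.31 without ASO (0.879 to 1.95) and 0.178 with it (0.0852 to 0.371), beside 1.42 and 0.267 in other genes. Over both genotypes the mean log2 ratio of ASO to untreated was -1.34, and exchanging labels within genotype (exact permutation test, 4 relabellings) gave a one-sided p of 0.5 and a two-sided p of 1, where the smallest values possible were 0.25 and 0.5. The difference in HttQ111/+ rests on a single library that was low at start sites of all genes.

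Gene-body peaks of Zfp genes were fewer with ASO in both genotypes, 178 against 203 in Htt+/+ (0.877, 0.717 to 1.07) and 153 against 247 in HttQ111/+ (0.619, 0.506 to 0.758). Other genes gave 0.857 (0.839 to 0.876) and 0.785 (0.769 to 0.802), so the HttQ111/+ interval of the Zfp genes lay below the ratio of the others. This held for peaks only, and peaks of the same gene are not independent. Counted by genes with a gene-body peak, the HttQ111/+ ratio was 0.758 (0.583 to 0.986) for Zfp genes. That interval held the 0.849 of other genes. The mean log2 ratio was -0.44 with an exact permutation one-sided p of 0.25, the smallest this design allows. HttQ111/+ to Htt+/+, the Zfp gene-body peaks gave 1.22 without ASO (1.01 to 1.46) and 0.860 with it (0.693 to 1.07), directions that differ. Counted by genes with a gene-body peak, the ratios were 1.21 (0.934 to 1.56) and 1.07 (0.802 to 1.42), with intervals that both held 1. No contrast of the Zfp genes could be called at this replication, and in HttQ111/+ the effect of the ASO and a property of that 1 library cannot be told apart.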

How the data were processed

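HTT ChIP-seq of cortex was analysed in 4 libraries, 1 per group. Data of the 4 input samples themselves were not analysed here. The authors demultiplexed reads (bcl2fastq 2.17), aligned them with HISAT2, thinned all ChIP read sets to that of the smallest library, and ran MACS2 on each library against a single control pooled from the inputs and scaled to it. The depths recovered from the lists were not equal, however. Scaling factors ran from 2.67 in HttQ111/+ ASO, the deepest at 1.36 ChIP reads per kb, to 3.30 in HttQ111/+ untreated, at 1.10. The reason was not tested. The deposited lists give, for every peak, the summit's fold enrichment (a ratio to background), −log10 p and −log10 q values, an integer score, and the offset of the summit from the peak's start, all as the authors made them. The labels name mm9 and the methods mm10. No peak (0) passed a chromosome end of NCBIM37, and the files were read as mm9.

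Start sites were the 5' ends of GENCODE vM1 gene records. A peak counted for a start site if 1 base lay within 1 kb, and for the gene body if it overlapped the gene and not that window. A peak can count for several genes. Reads at the summit were taken as the whole number that gives both deposited values within 0.01 of −log10 p under 1 scaling factor per library (99.97% or more of peaks matched). This search and the counting were tested on simulated data. Members and lists were chosen with earlier results of these data known. Named were all members with start-site peaks in 3 or 4 libraries, those in 2 libraries (the 5 of highest mean fold enrichment with values), members with overlapping gene-body peaks, and role-list members by count. Of the listed symbols, Zfp638, Fam208a and Rbbp7 were not found on chromosomes 1 to 19. With 1 library per group, only counts were compared, by an exact permutation test over libraries. The files hold no measure of HTT level or of cell types, so neither the knockdown nor the tissue label was checked. Alternatives changed the peak threshold, window, start site, gene body, cluster rule and libraries. Tools were scipy 1.17.1, pandas 2.3.3, matplotlib 3.10.9, and numpy 2.4.6 under Python 3.11.15.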

Additional observations from a re-analysis of the deposited data

Results flagged for a closer look

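The ratio of Zfp genes with a start-site peak, ASO to untreated, lay above 1 in Htt+/+ (1.07) and below 1 in HttQ111/+ (0.145). The 2 values lay on opposite sides of 1, but the interval of the first held 1 (0.706 to 1.63), and with start sites of any protein-coding transcript both lay below 1 (0.944 and 0.178). The difference between the genotypes was not tested, since each group held 1 library. The ratio of HttQ111/+ to Htt+/+ likewise lay above 1 without ASO (1.31) and below 1 with ASO (0.178), the first again with an interval that held 1 (0.879 to 1.95), and that difference was not tested either. Both pairs include the HttQ111/+ ASO library, in which 4.51% of all genes had a start-site peak. The other genes showed the same pair of directions (1.25 and 0.235, 1.42 and 0.267). With peaks of 5 or more reads the counts of Zfp genes were 28, 34, 39 and 7 in Htt+/+ untreated, Htt+/+ ASO, HttQ111/+ untreated and HttQ111/+ ASO, so the order did not change. Of the 8 Zfp genes with a start-site peak in HttQ111/+ ASO, 5 also had one in HttQ111/+ untreated and 5 in Htt+/+ untreated, each 62.5%, against 35.2% and 28.7% in other genes. In Htt+/+ ASO 3 of the 8 had one (37.5%), against 32.6% in other genes. With only 8 genes these shares are imprecise, and the differences were not tested.

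Chromosome X lay outside the comparisons. Its 7 Zfp genes held 8 gene-body peaks in the 4 libraries together, or 47.5 per Mb (20.5 to 93.5), against 13.7 (12.6 to 14.8) in the 925 other protein-coding genes of that chromosome. The difference was not tested across samples.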

How the results depend on the processing

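Of 89 values of the 11 counts, shares and ratios under another peak threshold, window, start site, gene body, cluster rule, comparison set or record rule, 85 stayed within their interval or within 1.5 times the count, 0 changed direction past its interval and 4 moved. The interval of the ratio of start-site shares came to hold 1 with windows of 500 bp and 2 kb, with start sites of any protein-coding transcript and with GC weighting, and the ratio of ASO to untreated in Htt+/+ passed from 1.07 to 0.944 with start sites of any transcript. With peaks of 5 or more reads at the summit, gene-body peaks in 1 or more libraries were found at 90 Zfp genes, in 2 or more at 39, and the ratio of densities was 1.63. With other genes weighted to the GC bins of the Zfp genes that ratio was 1.11. The read minimum and the GC weighting were added after the data were seen.

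Leaving out each library in turn, with fewer libraries in which a peak can recur, gave 74 to 95 Zfp genes with a start-site peak in 1 or more libraries and 18 to 36 in 2 or more (21 without Htt+/+ untreated, 23 without Htt+/+ ASO, 18 without HttQ111/+ untreated, 36 without HttQ111/+ ASO). Gene-body peaks were found at 179 to 196 and 81 to 97. The ratio of start-site shares was 0.797 to 0.835, the ratio of densities 1.20 to 1.29, and the difference between single and clustered genes -2.00 to 3.22 percentage points. No paired analysis was possible because the labels give no replicate numbers and each group held 1 library.

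The limits are 1 library per group, an uncertain pool size and peaks that mostly rest on 2 to 4 reads, so absence of a peak does not show absence of HTT. How reads of near-identical Zfp paralogs were aligned was not tested.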
